A study of Mus musculus with 12 samples.

Results

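The Notch genes described here are 10 in number: the receptors Notch1, Notch2, Notch3 and Notch4, the Jagged ligands Jag1 and Jag2, and the transcriptional effectors Hes1, Hey1, Hey2 and Heyl. They are the rows of the deposited expression table that carry one of these gene symbols, 10 of 53341 rows. All 10 were also among the 18139 genes kept for testing, those that reached 10 normalized counts in 3 or more of 12 libraries. RNA was sequenced from fibroblast-like synoviocytes, the stromal cells that line the joint capsule, grown in culture from mice that the labels call SoxC. The 12 libraries formed 4 groups of 3. Control cells (control) had received Ade5CMV-eGFP, an adenovirus that carries a fluorescent protein gene, and knockout cells (SoxC_KO) had received Ade5CMV-Cre, which carries Cre recombinase. The groups control_TNF and SoxC_KO_TNF had received the same viruses and recombinant human TNF at 10 ng/mL for 16 h. All 4 groups thus received a virus, but its cargo differed between control and knockout cells. SoxC loss and the change from eGFP to Cre cannot be told apart. The CMV promoter named in both viruses is active in many cell types. No source used here gives the SoxC alleles, the segments that Cre deletes, or whether replicates were separate animals or cultures. The p-values therefore rest on a spread between libraries that may be only technical.

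Notch receptors are membrane proteins that are cut when a ligand of the Jagged or Delta family on a neighbouring cell binds them. The freed intracellular part enters the nucleus, joins the DNA-binding protein RBPJ and Mastermind co-activators, and switches on target genes, among which the Hes and Hey genes encode repressors of the basic helix-loop-helix class. In the synovium Notch3 is known as a receptor of sublining and perivascular fibroblasts, and Notch signals from endothelial cells are known to set fibroblast position there. TNF is a cytokine of inflamed joints, and the SoxC transcription factors are Sox4, Sox11 and Sox12.

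Normalized totals were 19.6 to 23.1 M per library, and the read pairs behind them were put at 8.14 to 13.7 M from the commonest low value in each library, a rough estimate. Sox4 stood between 1625 and 4238 normalized counts in the 6 control libraries and between 548 and 1433 in the 6 knockout libraries, which did not overlap. Its average knockout difference on the log2 scale was -1.46 (SE 0.34, limma adjusted p = 0.99998, and 0.0146 with the replicate number as a block). For Sox11 the difference was -1.44 (SE 0.47) and for Sox12 it was -0.72 (SE 0.23), neither past the threshold in either fit. Without TNF Sox12 lay at only -0.25 (SE 0.33), with 194 to 259 in SoxC_KO inside the 162 to 352 of control. With TNF it lay at -1.19 (SE 0.33). Sox11 also overlapped without TNF, at 26.8 to 175 in SoxC_KO and 153 to 272 in control. Since the deleted part is not given, reads outside it may remain in these counts. The first principal component held 51.6% of the variance. The 4 libraries numbered 3 were the highest 4 of the 12 along it. Fibroblast markers summed to 382491 to 539055 normalized counts in the libraries numbered 1 and 2 and to 195412 to 364489 in those numbered 3, so the labelled cell type's markers were abundant in all 12. Macrophage markers summed to 1401 to 2078 and to 3450 to 4015 in the same sets. Lyz2 had the highest mean of these markers (1340), while Ptprc (6.83) and C1qa (6.52) were too low to be kept for testing. The 6 hepatocyte markers summed to 3650 in SoxC_KO_TNF replicate 1 and to 541 in control_TNF replicate 2, and to at most 72.4 in the other 10 libraries. For part of the results, values without these libraries are also given below.

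Levels differ widely among the 10 genes. Per kilobase of exon (normalized count divided by the length of all annotated exons of the gene), the mean over the 12 libraries was 449 for Hes1, 306 for Jag1, 172 for Notch2 and 117 for Notch3. Lower means were found for Notch1 (40.7 per kilobase), Notch4 (31.97), Hey1 (21.4), Heyl (12.1), Hey2 (7.66) and Jag2 (3.19). Hes1 and Jag1 therefore led the effectors and ligands, and Notch2 and Notch3 the receptors. No neighbours in this order were separated by their ranges pooled over the libraries. Hes1 ranged from 336 to 578 and Jag1 from 155 to 435, and even the widest step, from Notch3 (67.4 to 217) to Notch1 (22.2 to 68.4), overlapped. Within single libraries, Jag1 lay above Notch2 and Notch3 above Notch1 throughout, while the other neighbours changed order between libraries. At the low end, Jag2 rested on an estimated 2.91 to 22.8 read pairs per library, Hey2 on 6.00 to 32, Heyl on 11 to 47.7 and Hey1 on 22.0 to 48.5, so counting error weighs on these 4 genes. Notch4 rested on at least 69.0 pairs in each library, and the other 5 genes on at least 120.1.

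**Figure D1:**
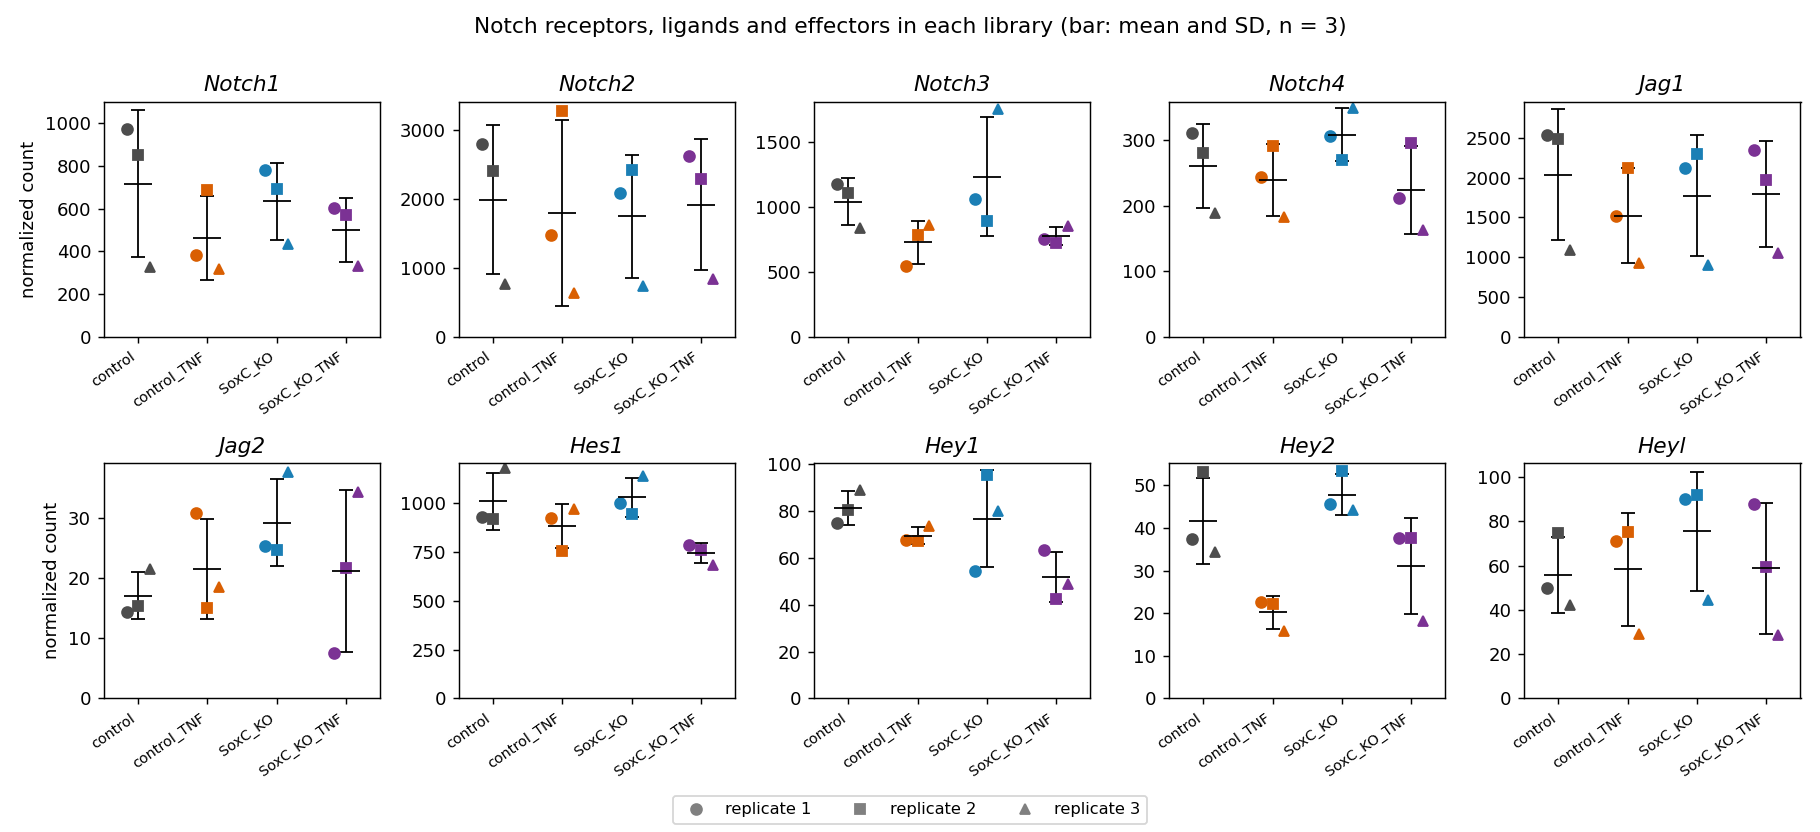
Normalized count (linear axis from 0) of each of the 10 Notch genes in the 12 libraries, by group, with the replicate number as the point's shape and the group mean and SD (n = 3) as bars. Notch1, Notch2, Jag1, Hey2 and Heyl were lowest in the library numbered 3 of all 4 groups, and Hey2 in control_TNF (15.8 to 22.7) lay below control (34.3 to 53.1).

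The start regions of 3 members are shown because the values below turn on them: Hey2 had the largest TNF difference of the 10 genes, Notch3 the largest among the receptors, and Notch2 the highest receptor level per kilobase and the widest spread between libraries. Each is the 250 bases before the RefSeq start site (build GRCm38.p6), 5′ to 3′ on the gene's own strand. Capitals mark matches, on either strand, to 4 motifs: the RBPJ core TGGGAA, the SOX core ACAANG, the E-box CACGTG and the NF-kB consensus.
Hey2, chr10:30842784-30843033, minus strand: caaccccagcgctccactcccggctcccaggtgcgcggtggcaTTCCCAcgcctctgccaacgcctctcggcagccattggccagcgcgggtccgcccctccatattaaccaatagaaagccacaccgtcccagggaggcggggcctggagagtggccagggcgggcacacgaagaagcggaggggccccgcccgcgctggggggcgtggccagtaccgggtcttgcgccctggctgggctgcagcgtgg
Notch2, chr3:98013288-98013537, plus strand: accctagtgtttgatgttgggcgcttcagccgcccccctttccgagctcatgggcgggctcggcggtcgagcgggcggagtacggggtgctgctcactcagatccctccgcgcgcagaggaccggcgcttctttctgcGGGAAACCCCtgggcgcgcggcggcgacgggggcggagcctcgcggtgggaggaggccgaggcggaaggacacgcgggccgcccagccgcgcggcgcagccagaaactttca
Notch3, chr17:32166891-32167140, minus strand: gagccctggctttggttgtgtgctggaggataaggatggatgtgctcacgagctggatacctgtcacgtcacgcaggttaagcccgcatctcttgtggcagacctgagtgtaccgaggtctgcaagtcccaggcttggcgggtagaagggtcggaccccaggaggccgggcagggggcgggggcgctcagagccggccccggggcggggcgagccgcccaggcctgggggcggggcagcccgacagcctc
The Hey2 window held 1 RBPJ core match, read on the minus strand at position -207 from the start. The Notch2 window held 1 match to the NF-kB consensus, at position -112. The Notch3 window held none of the 4 motifs. Among 32851 windows of the same length, 21.6% held the RBPJ core, 36.3% the SOX core, 6.02% the E-box and 3.9% the NF-kB consensus. Of the 7 members with an entry in the RefSeq table, SOX core matches numbered 2 in Notch1, 2 in Notch4 and 1 in Jag1, with none in Jag2. GC content was 71.6% for Hey2, 72.0% for Notch2 and 68.8% for Notch3, against a median of 52.4% over all windows. A match is a description of letters and no evidence of binding.

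Across the 10 genes, TNF was compared with no TNF in control cells, in knockout cells and as the average of both. No member passed the threshold (limma, Benjamini-Hochberg adjusted p under 0.05) in any of the 3, where 0.32%, 0.292% and 1.17% of all genes tested did. At an unadjusted p under 0.05, 1 member was found in control cells, 2 in knockout cells and 3 in the average, against 4.21%, 7.38% and 8.17% of all genes. The average TNF difference was below 0 for all 10 members, with a median of -0.32 on the log2 scale against -0.00 over all genes, and ran from -0.83 for Hey2 to -0.05 for Notch2. Without the 2 libraries with hepatocyte transcripts the member median was -0.47, and 9 members lay below 0. In the TNF comparisons, deviations from group means of same-numbered libraries had r of 0.103 to 0.715, highest for number 3 in both genotypes. Libraries of different numbers were not compared in this way, so these values do not establish that the numbers mark pairs. With the replicate number as a block, 1 member, Hey2, passed in the average (5.19% of all genes did). Of 6 skeletal muscle markers, 5 were tested. All 5 were also below 0 in the average (median -0.31, none past the threshold, 1 lower with the replicate block). The 6 markers summed to 729.6 to 909.9 normalized counts in control and 356 to 528 in control_TNF. They summed to 648 to 1279 in SoxC_KO and 417 to 1219 in SoxC_KO_TNF. Acta1 led these sums, with a mean of 566 over the 12 libraries against 14.4 to 44.5 for the other markers. The part of these markers in the members' differences was not tested. In bulk RNA, fewer cells of a type and less RNA per cell cannot be told apart.

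Notch3 showed the largest average TNF difference among the receptors. It is a receptor best known from vascular smooth muscle cells and pericytes. It stood at 1180.0, 1106 and 839.8 normalized counts in control replicates 1 to 3 and at 545, 782 and 862 in control_TNF, and at 1061, 891 and 1754 in SoxC_KO and 757, 722 and 857 in SoxC_KO_TNF. In knockout cells the TNF libraries all lay below those without TNF, while in control cells control_TNF replicate 3 reached past the lowest control library. The average TNF difference was -0.57 (SE 0.19, adjusted p = 0.324, and 0.0785 with the replicate block), lower in 5 of 6 same-numbered pairs. Without the 4 libraries numbered 3, an alternative chosen after seeing the data, it was -0.60 (SE 0.13) and passed the threshold (adjusted p = 0.0395). In that fit 245 of 17600 genes were called lower. SoxC_KO replicate 3, the highest Notch3 library, moved the average most: it was -0.42 (adjusted p = 0.385) without it. Mural markers, which include those of pericytes, summed to 6149 to 6577 normalized counts in control and 5312 to 5624 in control_TNF, and to 6100.0 to 8797 in SoxC_KO and 4369 to 5609.65 in SoxC_KO_TNF. The sum was thus lower with TNF in both genotypes. Ndufa4l2 alone had a mean of 2846 over the 12 libraries. Of the 9 listed mural markers 7 were kept, 6 of them lower with TNF in the average and none past the threshold (1 with the replicate block), Kcnj8 was too low to be kept, and Higd1b was at 0 in all 12 libraries. Their part in the Notch3 difference was not tested.

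Notch1, the receptor named in most accounts of the pathway, was lower with TNF in 6 of 6 same-numbered pairs. Its counts were 973, 854 and 325 in control, 384, 688 and 317 in control_TNF, 780.0, 694 and 434 in SoxC_KO, and 604, 570.0 and 329.8 in SoxC_KO_TNF. The groups overlapped in both comparisons, and the library numbered 3 was the lowest of each group. On average TNF shifted it by -0.46 (SE 0.32, adjusted p = 0.970), and with the replicate block its SE was 0.16 and its adjusted p 0.151. Of the 18139 genes, 5.33% were lower in 6 of 6 pairs.

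Notch2 had the highest receptor level per kilobase and, in the fit without block, the widest interval. It read 2790.0, 2402 and 757 in control, 1479, 3267 and 629 in control_TNF, 2079, 2415 and 737 in SoxC_KO, and 2619, 2283 and 835 in SoxC_KO_TNF. Its average TNF difference was -0.05 with a 95% interval from -1.16 to 1.06 in the fit without block, lower in 3 of 6 pairs. That unadjusted interval includes differences of either sign and sets no limit of detection. With the replicate block the SE was 0.16 instead of 0.51 (limma adjusted p = 0.921). Without the 2 libraries with hepatocyte transcripts the average was -0.50. Notch4, a receptor best known from endothelial cells, ranged from 163 to 349 over the 12 libraries. Its average TNF difference was -0.31 (SE 0.20, adjusted p = 0.938), and the groups overlapped in both cell types. Endothelial markers summed to 418 to 610 over the 12 libraries. Notch4 shares its locus with Gm20462 on the opposite strand (mean 403 normalized counts), and Notch3 with Gm17276 (54.1); whether counting used strand is not given, so reads of these pairs may be mixed.

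Jag1, the main Jagged ligand here, read 2535, 2488 and 1091 in control, 1523, 2116 and 922 in control_TNF, 2123, 2295 and 905 in SoxC_KO, and 2350.0, 1973 and 1053 in SoxC_KO_TNF. The libraries numbered 3 again lay lowest in each group. Its TNF difference was -0.40 (SE 0.48) in control cells and 0.05 (SE 0.48) in knockout cells, neither past the threshold. The average was -0.18, and -0.43 without the 2 libraries with hepatocyte transcripts. Jag2, the other Jagged ligand, was near the detection limit. It read 14.3, 15.4 and 21.6 in control and 30.8, 15.1 and 18.5 in control_TNF, and 25.3, 24.7 and 37.6 in SoxC_KO and 7.53, 21.7 and 34.4 in SoxC_KO_TNF. Its TNF difference was 0.27 (SE 0.49) in control cells and -0.64 (SE 0.49) in knockout cells, and the test of the difference between them gave -0.91 (SE 0.70, adjusted p = 0.884).

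Hey2, a repressor best known from heart and artery development, had the largest TNF difference of the 10 members. It read 37.4, 53.1 and 34.3 normalized counts in control and 22.7, 22.2 and 15.8 in control_TNF, and 45.7, 53.3 and 44.3 in SoxC_KO and 37.5, 37.7 and 18.1 in SoxC_KO_TNF. All TNF libraries lay below all libraries without TNF of the same genotype. The average difference was -0.83 (SE 0.24), a level 0.561 times that without TNF, with a limma adjusted p of 0.171, and lower in 6 of 6 same-numbered pairs. With the replicate block Hey2 fell (SE 0.20, adjusted p = 0.0292), a call that 2.18% of all genes shared in that direction. The difference was -0.67 (adjusted p = 0.142) without the 4 libraries numbered 3 and -0.95 (adjusted p = 0.292) without the 2 libraries with hepatocyte transcripts. By genotype it was -0.998 (SE 0.33, adjusted p = 0.661) in control cells and -0.67 (SE 0.33, adjusted p = 0.724) in knockout cells, and the test of the difference between them gave 0.33 (SE 0.47, adjusted p = 0.884).

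Hes1, the effector with the highest level per kilobase and a target of several pathways besides Notch, also lay lower with TNF. It read 928, 917 and 1177 in control, 921, 756 and 969 in control_TNF, 1001, 942 and 1139.9 in SoxC_KO, and 785, 760.1 and 684 in SoxC_KO_TNF. The groups overlapped in control cells, while in knockout cells all TNF libraries lay below all others. The TNF difference was -0.19 (SE 0.18) in control cells and -0.46 (SE 0.18, adjusted p = 0.561) in knockout cells, and the average of -0.33 (SE 0.13, adjusted p = 0.467, and 0.103 with the replicate block) was lower in 6 of 6 pairs.

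Hey1, a close relative of Hey2, read 74.8, 80.5 and 89.1 in control, 67.6, 67.3 and 73.8 in control_TNF, 54.6, 95.7 and 80.3 in SoxC_KO, and 63.4, 42.5 and 49.1 in SoxC_KO_TNF. In control cells the TNF libraries lay just below all others, and in knockout cells the groups overlapped. Its average TNF difference was -0.38 (SE 0.18, adjusted p = 0.643), lower in 5 of 6 pairs. Heyl, the third Hey gene and one linked to Notch3 signalling in smooth muscle, ranged from 28.7 to 92.1 with no separation by group. Its average TNF difference was -0.21 (SE 0.35). Read by non-overlap, 2 members (Hey1 and Hey2) were lower with TNF in control cells, where 4.11% of all genes were, and 3 (Notch3, Hes1 and Hey2) in knockout cells, where 6.4% were.

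**Figure D2:**
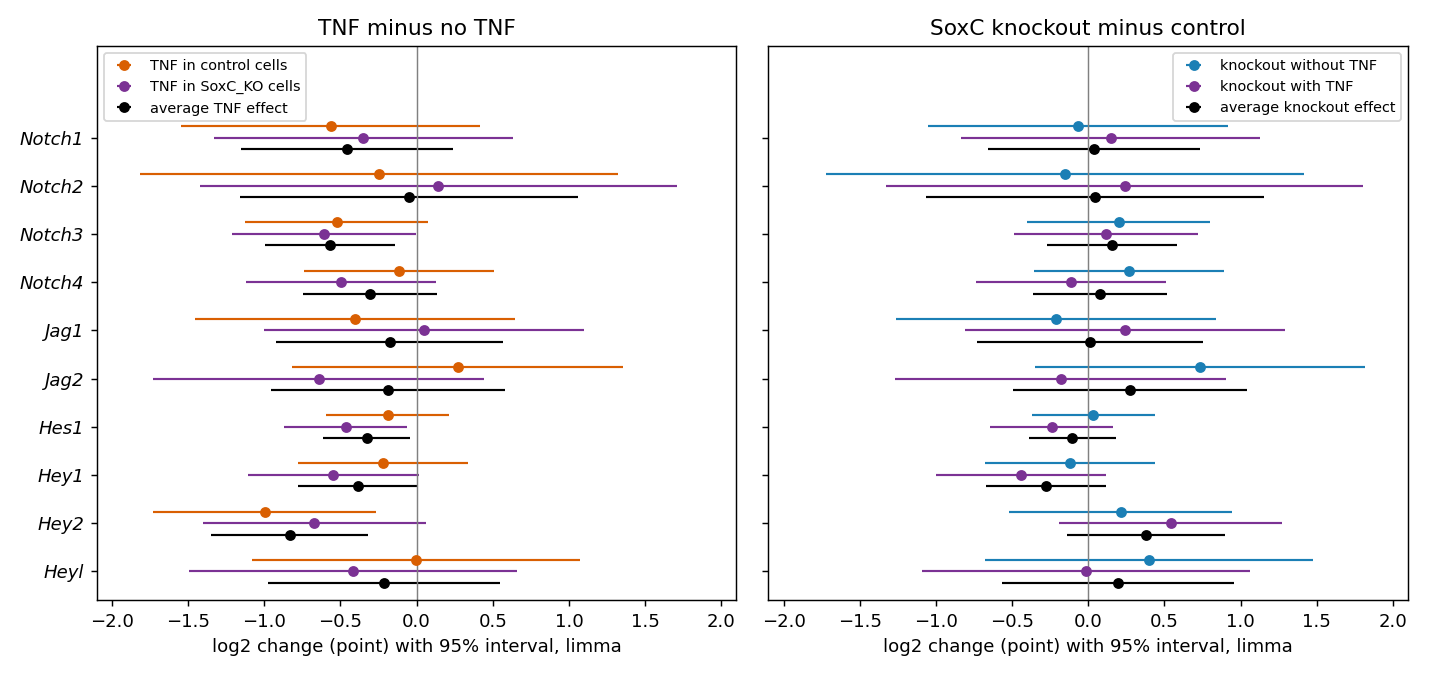
Log2 change of each of the 10 Notch genes with its 95% interval (limma) for TNF against no TNF (left) and knockout against control (right), in each cell state and averaged. All 10 average TNF points lie below 0, down to -0.83 for Hey2, while the average knockout intervals all include 0.

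The knockout comparison set cells given Ade5CMV-Cre against cells given Ade5CMV-eGFP, with and without TNF. In it, a dependence on SoxC factors cannot be told apart from the change of virus cargo. No member and no other gene passed the threshold without TNF, with TNF or in the average (0% called in each). At an unadjusted p under 0.05 in the limma fit there were 0 members in each, and 176, 233 and 140 of all genes. With the replicate block, 1 gene passed in the average (0.00551% of those tested), which was Sox4. In the fit without block Sox4 itself was not called (-1.46, SE 0.34), so differences of that size could go unseen. The 95% interval of the average knockout difference in that fit is unadjusted and sets no limit of detection. It was narrowest for Hes1, at -0.10 (95% interval -0.39 to 0.18), and widest for Notch2, at 0.04 (-1.07 to 1.15). With the replicate block the SE was 0.10 instead of 0.13 for Hes1 and 0.16 instead of 0.51 for Notch2.

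Hey2 had the largest average knockout difference among the members, at 0.38 (95% interval -0.14 to 0.90, adjusted p = 0.99998). It was higher in the knockout library for all 3 numbers both without and with TNF (6 of 6), as were 0.651% of all genes, although with TNF the numbers were not taken as pairs (r = 0.0537 for number 1). The ratio within a number ran from 1.003 to 1.70. The groups overlapped both with and without TNF. Hey1 stood the other way, at -0.28 (95% interval -0.67 to 0.12), and was lower in 5 of these 6. With TNF the 3 Hey1 knockout libraries lay below the 3 control libraries, as did 2.34% of all genes, and without TNF they overlapped. Jag2 alone of the members was higher without overlap in knockout cells without TNF (2.39% of all genes), with a difference of 0.73 (SE 0.49). With TNF that difference was -0.18 (SE 0.49). For the receptors and Jag1 the average knockout difference lay between 0.01 for Jag1 and 0.16 for Notch3.

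Whether TNF acted differently in the 2 genotypes was asked by the interaction of TNF and knockout. No gene passed (0% of those tested), and 0 members had an unadjusted p under 0.05 (limma without block), against 273 of all genes. With the replicate block no gene passed either, and 0 members and 3123 of all genes had an unadjusted p under 0.05. The estimates for the members ran from -0.91 for Jag2 to 0.45 for Jag1 with SEs of 0.26 (Hes1) to 1.01 (Notch2) without block. With the block the SEs ran from 0.21 (Hes1) to 0.65 (Jag2), and that of Notch2 was 0.31. No difference between the TNF responses of the 2 genotypes was detectable for the members at this spread.

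Several members differed by replicate number. In all 4 groups the library numbered 3 was the lowest for Notch1, Notch2, Jag1, Hey2 and Heyl, as it was for 24.7% of all genes. Relative to number 3, the other libraries were higher by 3.21-fold for Notch2, 2.17-fold for Jag1, 2.05-fold for Heyl, 1.92-fold for Notch1 and 1.42-fold for Hey2. Hes1 and Notch3 were instead highest in number 3 in 3 of 4 groups. Over all genes the difference of number 3 from the others fell with exon length, from a median log2 difference of 0.39 in the shortest of 5 equal bins of genes to -0.70 in the longest (Spearman correlation across genes -0.438; genes are not independent). Notch2, with 10782 bases of exon, lay at -1.68, below the median of its bin, and 3.88% of all genes lay at or below it. Notch3, of 8089 bases and in the same bin, lay at 0.25. Jag1 (-1.12) and Heyl (-1.04) lay below the median of their bin (-0.24), and Notch1 (-0.94) and Notch4 (-0.38) on either side of theirs (-0.70). Length, macrophage markers and fibroblast markers all moved with the replicate number, and their parts in these differences were not tested.

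**Figure D3:**
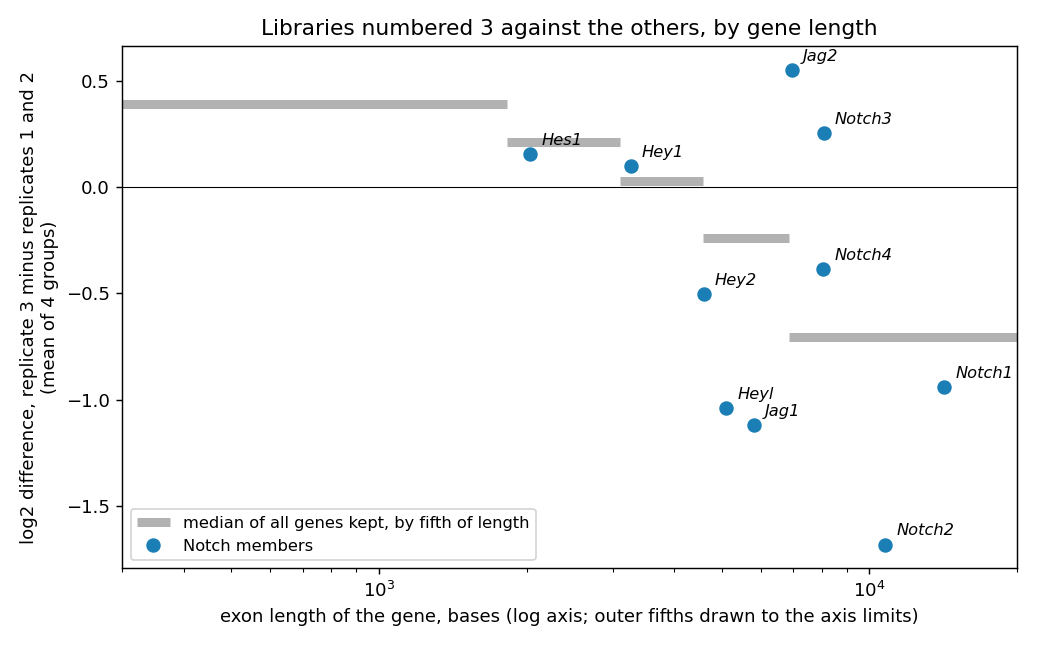
Log2 difference between the libraries numbered 3 and the others (mean of 4 groups) against exon length (log axis) for the 10 Notch genes, with grey bars for the median of all genes in each of 5 bins of length. Notch2 lies at -1.68, below the -0.70 of the longest bin, while Notch3 (0.25) and Jag2 (0.55) of the same bin lie above 0.

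The members that shared this pattern also tracked each other. Over the 12 libraries with group means removed, Pearson's r was 0.983 for Notch2 with Jag1, 0.949 for Notch1 with Notch2 and 0.935 for Notch1 with Jag1. With the replicate number removed as well, these were 0.775, 0.746 and 0.672. For Jag1 with Heyl r went from 0.887 to 0.01, and for Hey2 with Heyl from 0.860 to 0.583. These values describe the same 12 libraries and are not independent tests. Notch2 had an r over 0.9 with 14.4% of all genes and Jag1 with 16.2%, while Hes1 had one with 0.375%. Among named genes with a mean of at least 50, those reported here as most like Notch2 over the 12 libraries were Itpr2 (r = 0.994), Srrm2 (0.993) and Robo1 (0.993). For Jag1 they were Srgap2 (0.995) and Mkl2 (0.994), and for Hes1 they were Tpm1 (0.967), Lbh (0.949) and Lsp1 (0.940).

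The rest of the pathway was read from a list of 63 other genes, of which 57 were kept for testing. Dll3, Dll4, Mfng, Hes2, Hes3 and Hes5 were too low to be kept. In the average TNF comparison 2 rose and 0 fell (limma; 0.877% and 0.292% of all genes did), with a median of -0.06 over the 57 genes. Without the block none passed in control cells or knockout cells alone, in either knockout comparison or in the interaction. With the replicate block 3 rose and 2 fell in the average (3.01% and 2.18% of all genes). In control cells 2 rose with the block, Neurl3 and Dtx4 (1.18% of all genes did). In knockout cells 4 rose, which were Neurl3, Dtx4, Rbpj and the deltex gene Dtx3l (1.78% of all genes), and 2 fell, Neurl1a and Snai1 (1% of all genes).

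Both genes that rose encode E3 ubiquitin ligases. Neurl3, of the neuralized family, read 179, 158 and 483 normalized counts in control and 840.2, 704 and 1616 in control_TNF, and 219.6, 186 and 537 in SoxC_KO and 656, 799 and 1259.5 in SoxC_KO_TNF. Every TNF library lay above every library without TNF of the same genotype, and number 3 was the highest of each group. The share of all genes with such a rise, or with a rise in 6 of 6 pairs, is not reported here or below. The average TNF difference was 1.84 (SE 0.37, adjusted p = 0.0361), higher in 6 of 6 pairs. The call was lost when any 1 of 10 libraries was left out (adjusted p over the 12 such fits from 0.0126 to 0.111) and without the 2 libraries with hepatocyte transcripts (0.0879), and held with the replicate block (5.71e-06). Its knockout difference averaged 0.02 (SE 0.37).

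Dtx4, of the deltex family, read 224, 212 and 212 in control and 298, 425 and 465 in control_TNF, and 186, 195 and 247 in SoxC_KO and 416, 357 and 441 in SoxC_KO_TNF. The TNF libraries lay above the others in both genotypes. Averaged over genotypes, the TNF difference was 0.90 (SE 0.15, adjusted p = 0.0128, and 0.000944 with the replicate block). It did not pass without control replicate 2 (adjusted p = 0.0505) or without the 2 libraries with hepatocyte transcripts (0.115). Its average knockout difference was -0.00 (SE 0.15).

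A further 3 genes passed in the average with the replicate block but not without it. Rbpj, the DNA-binding partner of the cleaved receptors, read 4172, 4466 and 2156 in control, 4869, 7103 and 2927 in control_TNF, 3591, 4082 and 1464 in SoxC_KO, and 7272, 6627 and 4248 in SoxC_KO_TNF. Within each replicate number it was higher with TNF, in 6 of 6 pairs, and in knockout cells the groups did not overlap. The average TNF difference was 0.76 (SE 0.32, adjusted p = 0.527, and 0.0019 with the block). Neurl1a, the other neuralized gene named here, lay lower with TNF at -0.68 (SE 0.18, adjusted p = 0.128, and 0.0121 with the block). Its highest library was SoxC_KO replicate 3, at 272 against 129 to 163 in the other libraries without TNF. Snai1, a transcription factor of mesenchymal cells and a known Notch target, lay lower at -0.47 (SE 0.14, adjusted p = 0.203, and 0.0369 with the block).

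**Figure D4:**
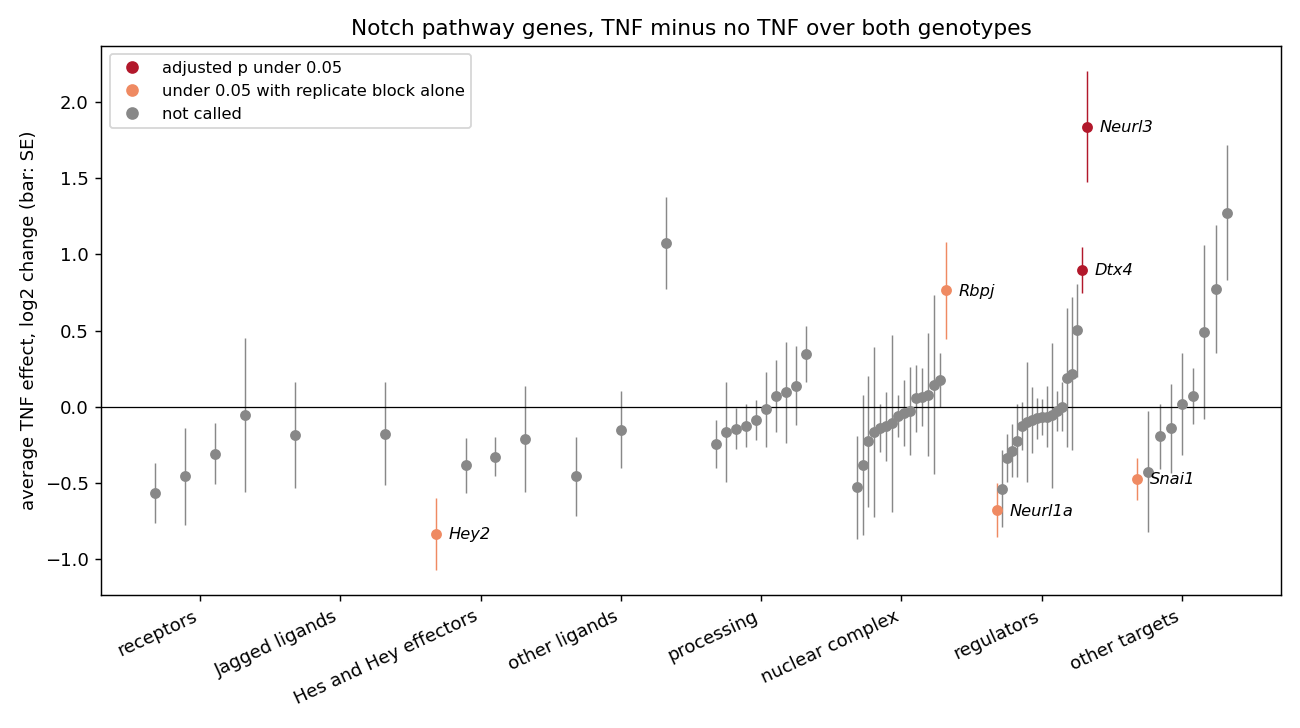
Average TNF effect (log2 change, bar SE) of the 10 Notch genes and the other listed pathway genes kept, arranged by role, coloured by whether the adjusted p was under 0.05 in the fit without block or only with the replicate block. Neurl3 (1.84) and Dtx4 (0.90) stand above 0, and Hey2 (-0.83) lies lowest of all genes drawn.

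For 4 of the other roles, the gene with the highest mean normalized count is given. Furin, the processing gene with the highest mean count and the protease that cuts the receptor precursor, had an average TNF difference of -0.14 (SE 0.14), and the 10 processing genes had a median of -0.05. The 16 genes of the nuclear complex had a median of -0.05. The ubiquitin ligase Nedd4, highest by mean count among the regulators, lay at -0.10 (SE 0.39), with a median of -0.07 over 19 regulators. Of the other ligands kept, the highest by count was Dlk2, a non-canonical ligand, at -0.45 (SE 0.26, adjusted p = 0.826). The cell-cycle inhibitor Cdkn1a, highest by mean count among the other targets, lay at -0.14 (SE 0.29), with a median of 0.02 over 9 genes.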

How the data were processed

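RNA was measured in 12 libraries of mouse fibroblast-like synoviocytes, grouped by their titles. Trizol extraction, poly(A) selection and paired NovaSeq reads are stated per the labels' protocols. The deposited table holds log2 normalized values, which the authors made with DESeq on build mm10 per the submitters' processing notes; no source used here names the aligner, annotation or strand setting. Values were raised to the power of 2, listed zeros kept as 0, and analysed as log2(normalized count + 1), which understates changes of low genes. Genes with at least 10 normalized counts in at least 3 libraries were kept. A limma model with 1 mean per group, an intensity trend and Benjamini-Hochberg adjustment over 18139 genes gave 7 two-sided comparisons (R 4.3.3, limma 3.58.1, Python 3.11.15, matplotlib 3.10.9). The script was tested on simulated data.

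The members, gene lists and tests were chosen with earlier results of these data known. Of the pathway list every called gene is named, up to 4 per direction and comparison, and otherwise the gene with the highest mean in each role; the genes most alike are those with the highest Pearson r. Some results under this rule are not reported here. Dll1 is named in the closing section after its values were seen. Titles give all groups the same replicate numbers. The correlation of deviations from group means between same-numbered libraries was 0.103, 0.550 and 0.715 for TNF in control cells, 0.340, 0.148 and 0.501 for TNF in knockout cells, 0.457, 0.515 and 0.707 for knockout without TNF, and 0.0537, 0.189 and 0.526 for knockout with TNF. The numbers were called pairs where all 3 exceeded a cut of 0.1, that is in all comparisons but the last. The limma fit without block does not use the numbers in any comparison. Counts of same-numbered libraries for the average knockout difference include the last comparison. Deviations within a group of 3 sum to 0, so a shared shift of number 3 alone raises these r for numbers 1 and 2. The cut therefore cannot show that the numbers mark pairs. The fit with the number as a block is printed where it changes a call. Exon lengths came from GENCODE M21, where 53236 of 53341 identifiers were found, and start regions from RefSeq, where 7 of 10 members had an entry. Alternatives were another pseudocount, filter or scaling, the block, array quality weights, only the groups compared, and leaving out libraries. Leaving out the 4 libraries numbered 3 or the 2 with hepatocyte transcripts was chosen after seeing the data.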

Additional observations from a re-analysis of the deposited data

How the results depend on the processing

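Of 30 TNF results of single members, 20 kept their direction under every alternative run, and of 674 values 628 kept direction and side of the threshold, 35 changed sign and 11 newly passed. For TNF in control cells, where 58 genes passed, 35 passed with no filter on low values, 310 with the replicate block, 6462 with array quality weights, 0 with only the groups compared (699 at an unadjusted p under 0.05 in limma), 274 without the 4 libraries numbered 3, 15 without the 2 libraries with hepatocyte transcripts, and 5 to 84 without 1 library. For TNF in knockout cells 53 genes passed, and in the same order 505 with the block, 921 with weights, 3 with only the groups compared, 193, 10, and 14 to 55. For the average TNF effect 212 genes passed, and 941 with the block, 3424 with weights, 668 without the libraries numbered 3, 92 without those with hepatocyte transcripts, and 118 to 253 without 1 library. Without TNF the knockout count of 0 became 40 with weights and 1 without the libraries numbered 3. With TNF it became 1 without the libraries numbered 3 and 1 without those with hepatocyte transcripts. The average knockout count became 1 with the block, 12 with weights and 1 without the libraries numbered 3, and the interaction count became 1 without the libraries with hepatocyte transcripts. The cause of these moves was not tested.

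No member passed in the fit without block. With weights 5 passed in control cells, where 6462 of 18139 genes did. In knockout cells 1 passed (Hes1), as did 921 of 18139 genes. In the average 3 passed (Notch1, Notch3 and Hey2), as did 3424 of 18139 genes. The 5 in control cells were Notch1, Notch3, Jag1, Jag2 and Hey2. The weights ran from 0.113 to 4.66, and estimating them by restricted maximum likelihood did not converge. With the block 1 passed in the average (Hey2), where 941 of 18139 genes did. Without the libraries numbered 3, Notch3 passed in the average, where 668 of 17600 genes did. The block changed no other member's call. A minimum value of 50 left 8 members tested.

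For TNF in control cells Heyl changed sign with a pseudocount of 5 (0.0010), quantile normalization (0.024), median centring (0.029), weights (0.13) and without the libraries numbered 3 (0.25). For TNF in knockout cells Notch2 was -0.16 without the libraries with hepatocyte transcripts, and Jag1 was -0.0011 with median centring, -0.13 with weights, -0.036 without the libraries numbered 3 and -0.19 without those with hepatocyte transcripts. The average TNF effect on Jag2 was 0.20 with weights and 0.21 without the libraries with hepatocyte transcripts. Without 1 library the TNF difference in control cells ran from -0.84 to 0.36 for Notch2, -0.33 to 0.065 for Notch4, -0.013 to 0.48 for Jag2 and -0.24 to 0.43 for Heyl. In knockout cells it ran from -0.39 to 0.66 for Notch2, -0.38 to 0.39 for Jag1 and -0.78 to 0.015 for Heyl. The average ran from -0.35 to 0.25 for Notch2, -0.41 to 0.10 for Jag2 and -0.39 to 0.0044 for Heyl. The shift of the library medians reached -0.21. Neurl3 did not pass with median centring (adjusted p = 0.0580). Depth limits Jag2, Hey2, Heyl and Hey1, which rest on few read pairs.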

Other observations

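Dll1, a Delta ligand of the same receptors, is the one other canonical ligand kept for testing. It read 27.9, 18.0 and 9.32 normalized counts in control and 40.6, 42.9 and 56.9 in control_TNF, and 14.1, 20.3 and 37.6 in SoxC_KO and 38.0, 38.7 and 36.5 in SoxC_KO_TNF. In control cells the TNF libraries lay above all others, a rise whose share over all genes is not reported here. In knockout cells the groups overlapped. The average TNF difference was 1.07 (SE 0.30, limma adjusted p = 0.162, and 0.0666 with the replicate block), higher in 5 of 6 same-numbered pairs, and so did not pass. Per kilobase of exon its mean over the 12 libraries was 7.52, against 306 for Jag1.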
